A study of Mus musculus with 4 samples.

Results

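The genes described here are 10 alpha and beta tubulin genes: Tuba1a, Tuba1b, Tuba1c, Tuba4a and Tuba8 for alpha tubulin, and Tubb2a, Tubb2b, Tubb4b, Tubb5 and Tubb6 for beta tubulin. They were taken by gene symbol from a table of 48432 gene rows, in which all 10 have 1 row each. The samples were cardiomyocytes, the muscle cells that drive the heartbeat, released by Langendorff perfusion from hearts of mice of a C57BL x FVB background after 3 days on a doxycycline diet. Control cells (2 libraries) had the MHC genotype and no other change named in the labels, and OE cells (2 libraries, Rbfox2_OE in the labels) came from mice made to overexpress Rbfox2, a regulator of alternative splicing. Both groups received the doxycycline. The age and sex of the animals and the promoter that drives the transgene are not given in the sources used here. Levels are FPKM (fragments scaled to transcript length and to the mapped fragments of the library), with 1 value for the 2 libraries of a group together, so there is no spread between replicates and no p-value. Each value is followed by the lower and upper bound that the authors' table gives it. The level of these bounds is not stated, and the depth in reads is unknown.

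Microtubules are hollow polymers of alpha and beta tubulin pairs, and each partner of the pair is made from several genes called isotypes. The isotypes are nearly alike over most of their length and differ mainly in the acidic tail at the carboxyl end, which projects from the polymer and carries most of its chemical modifications. In the cardiomyocyte, microtubules form a lattice around the nuclei and between the myofibrils, carry cargo, and resist contraction when they are detyrosinated, a state in which the last tyrosine of the alpha tail has been removed. Free tubulin also controls its own supply, because tubulin mRNA is degraded while it is being translated when free pairs are in excess.

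The last 60 coding bases before the stop codon are shown for Tuba4a and Tuba8, the alpha genes whose bounds were separate between the groups, because the tail they encode is where the isotypes part. They are mouse sequences on GRCm38, read 5′ to 3′ from the GENCODE M21 transcripts, with the last codon in capitals.
Tuba4a: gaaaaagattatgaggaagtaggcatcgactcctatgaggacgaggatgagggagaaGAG
Tuba8: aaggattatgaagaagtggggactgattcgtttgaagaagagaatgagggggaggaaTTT

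Tuba4a ended in the glutamate codon GAG, and Tuba8 in the phenylalanine codon TTT. Over the whole coding sequence, Tuba1a was 98.3% identical to Tuba1b and 97.1% to Tuba1c, against 84.7% to Tuba4a and 79.2% to Tuba8.

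The beta tails are shown for the most abundant beta gene, Tubb4b, and for Tubb2a and Tubb5, read in the same way.
Tubb4b: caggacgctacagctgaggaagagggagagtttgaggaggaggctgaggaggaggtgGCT
Tubb2a: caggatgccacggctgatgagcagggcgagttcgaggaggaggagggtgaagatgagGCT
Tubb5: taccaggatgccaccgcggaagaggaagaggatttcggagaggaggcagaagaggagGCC

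These 3 ended in an alanine codon, as did Tubb2b, and Tubb6 ended in the glutamate codon GAA. Tubb2a and Tubb2b were 96.5% identical over the coding sequence, and the other 9 pairs of beta genes lay between 80.2% and 84.6%.

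Tuba4a and Tuba8, the most abundant alpha genes of control cells, were lower in OE cells. Both were at least 2-fold lower with separate bounds, while the 3 Tuba1 genes kept overlapping bounds. Among the beta genes, Tubb6 alone had separate bounds, and it was higher. Tubb4b, the leading beta gene, was lower with overlapping bounds, and Tubb2a, Tubb2b and Tubb5 were higher with overlapping bounds.

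**Figure D1:**
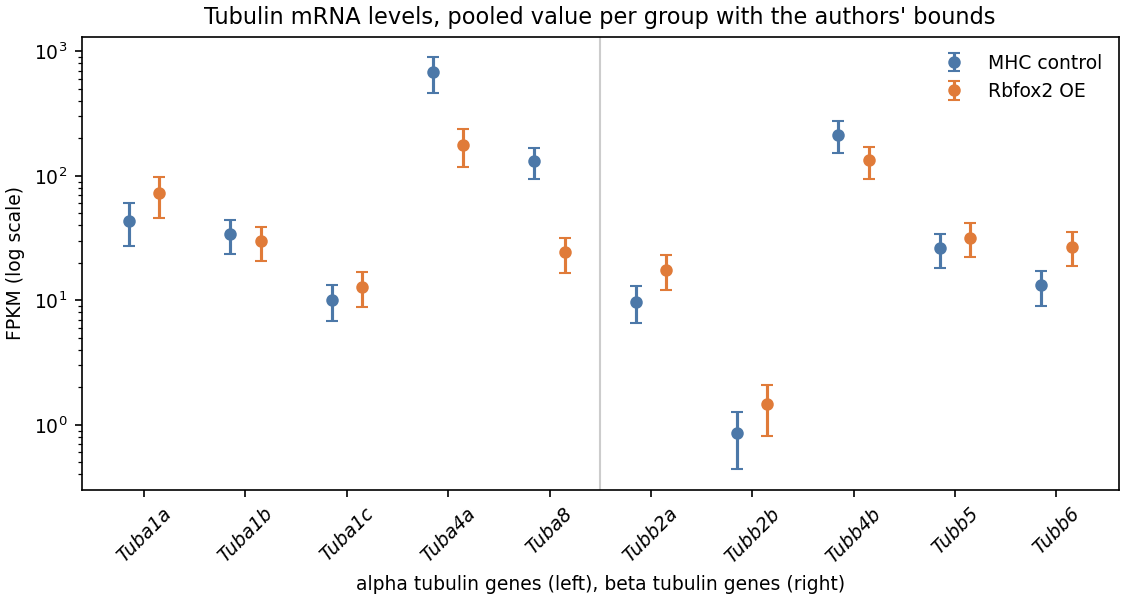
FPKM of each tubulin gene (log scale) in the MHC control and Rbfox2 OE groups; points are the pooled values of 2 libraries and bars run from the authors' lower to upper bound. The bars of Tuba4a, Tuba8 and Tubb6 do not overlap between the groups, and those of the other 7 genes do.

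Tuba4a (chromosome 1, 75214228 to 75219865, minus strand, 4 exons), the alpha isotype of striated muscle and platelets, stood at 680 FPKM in control cells (bounds 464 to 895). It stood at 177 FPKM in OE cells (bounds 118 to 237), a 3.83-fold lower level. The log2 ratio of OE over control cells, computed with 1 FPKM added to each value as for all log2 ratios given here, was -1.93. The ranges are 227 FPKM apart. By FPKM, Tuba4a ranked 104th of all genes in control cells and 392nd in OE cells.

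Tuba8 (chromosome 6, 121210696 to 121226854, plus strand, 5 exons), an alpha isotype of heart, skeletal muscle and testis, stood at 130 FPKM in control cells (bounds 93.6 to 167). In Rbfox2 OE it stood at 24.3 FPKM (bounds 16.7 to 31.9), which is 5.37-fold lower. Its log2 ratio was -2.38, the lowest of the 10 genes. Comparisons across the table used 11697 genes whose average over both groups reached 1 FPKM, of which 0.598% had a lower log2 ratio than Tuba8 and 1.48% a lower one than Tuba4a.

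Tuba1a (chromosome 15, 98949837 to 98953703, minus strand, 4 exons), an isotype of neurons and of growing tissue, stood at 43.8 FPKM in control cells (bounds 27.5 to 60.1) and at 72.4 FPKM in OE cells (bounds 46.2 to 98.6). The ranges overlap, and the log2 ratio was 0.71. The widely expressed Tuba1b (chromosome 15, 98931425 to 98934565, minus strand, 4 exons) stood at 33.8 FPKM (bounds 23.6 to 44.0) and 29.9 FPKM (bounds 20.8 to 38.9), a log2 ratio of -0.17. Its value in each group lay inside the bounds of the other. Tuba1c (chromosome 15, 99029891 to 99038110, plus strand, 4 exons), also widely expressed, stood at 10.1 FPKM (bounds 6.87 to 13.4) and 12.9 FPKM (bounds 8.85 to 17.0), a log2 ratio of 0.32. The order of the alpha genes by level was Tuba4a, Tuba8, Tuba1a, Tuba1b, Tuba1c in control cells and Tuba4a, Tuba1a, Tuba1b, Tuba8, Tuba1c in OE cells. Neighbours with overlapping bounds in that order were Tuba1a and Tuba1b in control cells, and Tuba1b with Tuba8 and Tuba8 with Tuba1c in OE cells.

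Tubb4b (chromosome 2, 25222160 to 25224702, minus strand, 4 exons), a widely expressed beta isotype, stood at 214 FPKM in control cells (bounds 153 to 275) and at 133 FPKM in OE cells (bounds 94.7 to 172). The log2 ratio was -0.68 and the ranges overlap. The broadly expressed Tubb5 (chromosome 17, 35833921 to 35838306, minus strand, 4 exons) stood at 26.2 FPKM (bounds 18.2 to 34.2) and 31.9 FPKM (bounds 22.2 to 41.6), a log2 ratio of 0.27. Its value in each group lay inside the bounds of the other.

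Tubb6 (chromosome 18, 67390717 to 67402749, plus strand, 4 exons), a beta isotype known to rise in regenerating and dystrophic skeletal muscle, stood at 13.2 FPKM in control cells (bounds 9.02 to 17.3). It stood at 26.9 FPKM in OE cells (bounds 18.8 to 35.1). The ranges are 1.42 FPKM apart, the narrowest gap of the 3 genes with separate bounds. Its ratio was 2.04 on the FPKM scale, and its log2 ratio of 0.98 lay just under the 2-fold threshold of 1.

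Tubb2a (chromosome 13, 34074274 to 34078007, minus strand, 4 exons), a beta isotype of neurons and muscle, stood at 9.77 FPKM in control cells (bounds 6.56 to 13.0) and at 17.7 FPKM in OE cells (bounds 12.1 to 23.3). The ranges overlap by a small margin, and the log2 ratio was 0.79. Its neighbour Tubb2b (chromosome 13, 34126748 to 34130466, minus strand, 4 exons), mainly neuronal, was the least abundant of the 10 genes, at 0.858 FPKM (bounds 0.442 to 1.27) and 1.46 FPKM (bounds 0.821 to 2.09). The order of the beta genes, Tubb4b, Tubb5, Tubb6, Tubb2a, Tubb2b, was the same in both groups. In the control Tubb6 and Tubb2a had overlapping bounds, and in OE cells those of Tubb5, Tubb6 and Tubb2a overlapped pairwise.

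All 10 genes passed the minimum mean of 1 FPKM. At least 2-fold lower were 2 of the 10, against 10% of the genes compared, and 0 of the 10 were at least 2-fold higher, against 6.97%. Separate bounds were found for 2 lower genes, against 9.33% of the genes compared, and for 1 higher gene, against 6.67%. Both criteria together were met by 2 lower genes, against 7.42%, and by 0 higher genes, against 5.27%. The median log2 ratio of the 10 genes was 0.30, beside -0.06 for all genes compared, with 6 genes above 0 and 4 below. With so few genes these shares are a description only. The groups' scaling bears on direction: a rescaling that leaves out mitochondrial genes and the 10 genes of highest level raised the OE values by 0.16 on the log2 scale. Of the genes at least 2-fold apart, it moved the split from 815 higher and 1172 lower to 1077 higher and 913 lower. Under it Tuba4a and Tuba8 remained lower, at log2 ratios of -1.78 and -2.23, and Tubb2a joined Tubb6 as higher with separate bounds. None of the 10 genes changed sign under it.

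**Figure D2:**
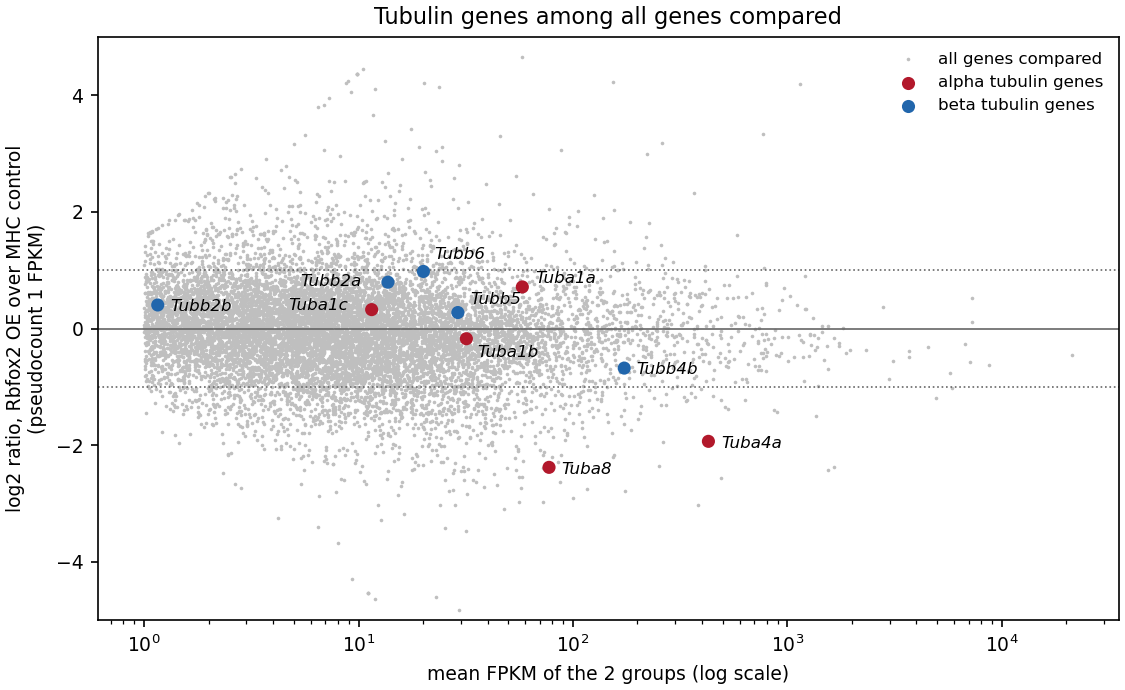
Log2 ratio (OE against control, pseudocount 1 FPKM) plotted against the mean FPKM of the groups (log scale) for the 11697 genes compared, with alpha tubulin genes in red and beta tubulin genes in blue; dotted lines mark 2-fold, and 9 genes fall outside the plotted range. Tuba4a and Tuba8 lie below the lower dotted line and Tubb6 sits just under the upper one.

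Since FPKM is per length, the isotypes can be added. The 5 alpha genes summed to 898 FPKM in control cells and 317 FPKM in OE cells, a 2.83-fold lower sum. Adding the lower bounds and the upper bounds gave 616 to 1180 FPKM and 210 to 423 FPKM, which do not overlap. The 5 beta genes summed to 264 FPKM and 211 FPKM, with added bounds of 187 to 341 FPKM and 149 to 274 FPKM, which overlap. The level of alpha over beta mRNA was 3.40 in control cells and 1.499 in OE cells. With the bounds at their extremes these ratios ranged from 1.81 to 6.31 and from 0.768 to 2.85, which overlap. Without Tuba4a, the remaining alpha genes summed to 218 FPKM and 139 FPKM, so Tuba4a alone carried most of the difference in the alpha sum.

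The make-up of the alpha pool differed with it. Tuba4a made up 75.7% of alpha FPKM in control cells and 56.0% in OE cells, and Tuba8 made up 14.5% and 7.67%. The share of Tuba1a was 4.88% in control cells and 22.9% in OE cells. The shares of Tuba1b were 3.77% and 9.43%, and those of Tuba1c were 1.13% and 4.08%. Together, a grouping made after the values were seen, the 3 Tuba1 genes held 9.77% of alpha FPKM in control cells and 36.4% in OE cells. With the bounds at their extremes these shares ran from 5.17% to 17.4% and from 22.01% to 53.5%, which do not overlap. The summed level of the 3 genes was 87.7 FPKM in control cells (added bounds 57.9 to 117) and 115 FPKM in OE cells (added bounds 75.8 to 155). These ranges overlap, whereas Tuba4a and Tuba8 together stood at 810 FPKM and 202 FPKM. The summed level of the 3 Tuba1 genes differed less than their share did. A scaling factor on a group does not alter shares within it.

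By the pooled values, the beta pool was more even in OE cells. The bounds of Tubb4b overlapped between the groups, and no range was computed for the beta shares. Tubb4b made up 81.0% of beta FPKM in control cells and 63.1% in OE cells, Tubb5 9.94% and 15.1%, and Tubb6 4.999% and 12.8%. Tubb2a held 3.70% and 8.36%, and Tubb2b 0.325% and 0.690%. The 4 beta genes other than Tubb4b summed to 50.02 FPKM and 77.99 FPKM, with overlapping added bounds of 34.2 to 65.8 FPKM and 53.9 to 102 FPKM.

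**Figure D3:**
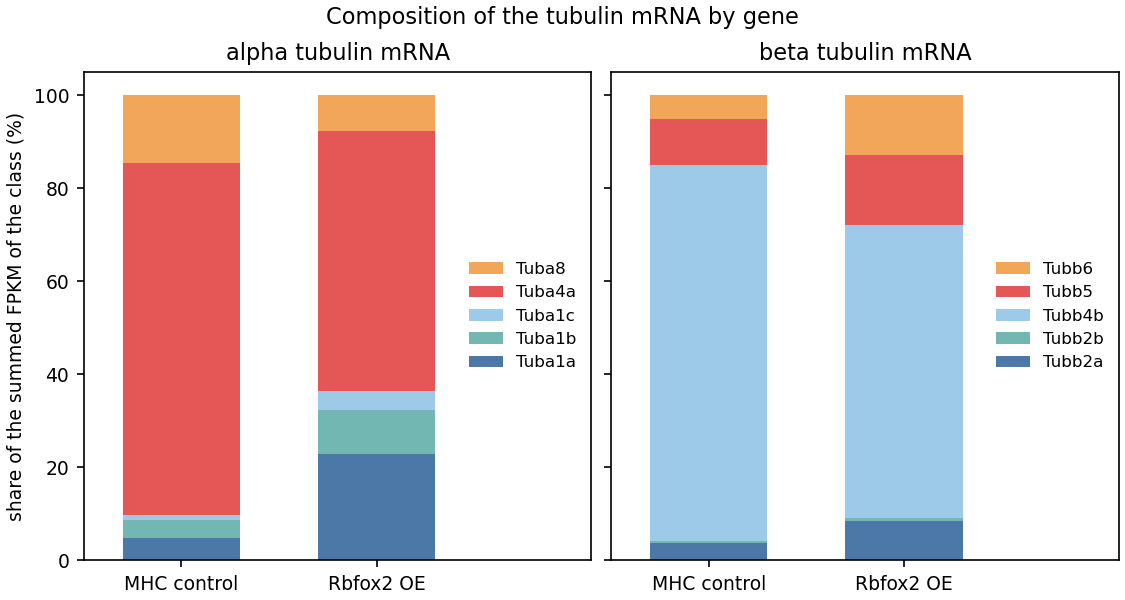
Share of each gene in the summed FPKM of alpha tubulin (left) and beta tubulin (right) in each group, in percent, from the pooled values without bounds. The 3 Tuba1 genes take 9.77% of the alpha column in control cells and 36.4% in OE cells, and Tubb4b takes 81.0% and 63.1% of the beta column.

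Similar sequences and neighbours limit how well single genes can be told apart. Of the distinct 50-base stretches in annotated transcripts, 72.9% of those of Tuba1a, 66.7% of Tuba1b and 52.7% of Tuba1c also occur in the same sense in transcripts of other genes, pseudogenes among them. The division of fragments among these 3 genes is therefore uncertain. In antisense, 50.2% of the stretches of Tuba1a, 54.6% of Tuba1b and 33.6% of Tuba1c occur in transcripts of other genes, mostly of the long noncoding RNA gene AC157548.1, whose level was not analysed here. Whether such fragments entered the values of the 3 genes or their sum was not tested. The share found in the same sense was 0.807% for Tuba4a, 0.181% for Tuba8, 0.0892% for Tubb5 and 0% for Tubb6. It was 49.6% for Tubb2a and 36.9% for Tubb2b, which share most of these stretches with each other, and 37.8% for Tubb4b, mostly with the pseudogenes Tubb4b-ps1 and Tubb4b-ps2. Those pseudogenes stood at 0.191 and 0.0119 FPKM in control cells and at 0.0869 and 0.0501 FPKM in OE cells.

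On the opposite strand, Tuba4a overlaps the kinase gene Stk16, with which the table gives it 1 shared locus, and 34.6% of its 50-base stretches occur in antisense in Stk16 transcripts. Stk16 stood at 23.5 FPKM in control cells (bounds 0 to 72.8) and 32.2 FPKM in OE cells (bounds 0 to 73.4). Tuba8 overlaps the antisense RNA gene Gm15856, which stood at 0.128 and 0.0407 FPKM. In antisense, 14.5% of the stretches of Tuba8 occur in Gm15856 transcripts. Tubb4b overlaps Fam166a, listed at 0 in both groups. Tuba1a and Tuba1b both overlap the annotated gene Gm49450 on their own strand, and Tuba1b also overlaps Gm41396 on the opposite strand. Tuba1c, Tubb2a, Tubb2b, Tubb5 and Tubb6 overlap no other annotated gene.

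The remaining tubulin genes were low or not detected, apart from Tubg1, the gamma tubulin from which microtubules are nucleated, at 17.2 FPKM in control cells (bounds 11.9 to 22.5) and 15.8 FPKM in OE cells (bounds 10.9 to 20.7). Its paralogue Tubg2 stood at 1.60 and 1.67 FPKM, with overlapping bounds. The delta tubulin gene Tubd1, a centriole tubulin, stood at 3.56 FPKM (bounds 2.26 to 4.86) and 1.43 FPKM (bounds 0.781 to 2.07), a log2 ratio of -0.91 with bounds that do not overlap (they overlap after the rescaling). Tubb4a, a neuronal isotype, stood at 0.823 and 1.27 FPKM. Tubb3, the neuronal beta isotype, stood at 0.139 and 0.726 FPKM with upper bounds of 4.41 and 12.1 FPKM, so its level is poorly fixed. Tuba3b, Tubb1 and Tube1 were under 0.3 FPKM in both groups. Tubal3 was listed at 0 in control cells and stood at 0.00483 FPKM in OE cells, and Tuba3a was listed at 0 in both.

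Genes that act on tubulin were compared from 7 lists. Of the 21 genes for tubulin folding (the CCT chaperonin, prefoldin and the tubulin cofactors), 1 was lower with separate bounds, beside 9.33% of all genes compared, 20 had overlapping bounds, and the median log2 ratio was -0.07 (0.084 after the rescaling, when 0 had separate bounds). The 1 gene was Arl2, a small GTPase that works with the cofactors, at 41.0 FPKM (bounds 28.4 to 53.7) and 20.6 FPKM (bounds 13.4 to 27.8). Both genes known to trigger the decay of tubulin mRNA were measured. Ttc5, which recognises the nascent tubulin chain, stood at 2.97 FPKM (bounds 1.82 to 4.12) and 2.42 FPKM (bounds 1.45 to 3.39). Scaper, which links Ttc5 to deadenylation, stood at 4.70 FPKM (bounds 3.23 to 6.18) and 1.21 FPKM (bounds 0.759 to 1.67), a log2 ratio of -1.37 with separate bounds (-0.64 with a pseudocount of 5 FPKM).

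The tubulin-modifying enzymes held the largest differences among these lists. Of 15 genes compared out of 25 listed, 2 were lower with separate bounds, beside 9.33% of all genes compared, and 0 were higher, beside 6.67%. That count is near the background share. The median log2 ratio was -0.36, and -0.047 over the whole list with no minimum level. Ttll1, the catalytic subunit of a tubulin polyglutamylase, stood at 51.0 FPKM in control cells (bounds 35.8 to 66.2) and 5.43 FPKM in OE cells (bounds 3.44 to 7.42), a log2 ratio of -3.02. Agtpbp1, a carboxypeptidase that trims glutamates from tubulin tails, stood at 47.5 FPKM (bounds 26.4 to 68.5) and 8.04 FPKM (bounds 4.30 to 11.8), a log2 ratio of -2.42. These enzymes of opposite action on glutamate chains were both lower.

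The enzymes of the tyrosine cycle, singled out after their values were seen, had overlapping bounds. Ttl, the ligase that restores the tyrosine, stood at 8.62 FPKM (bounds 5.42 to 11.8) and 6.52 FPKM (bounds 4.34 to 8.70). The detyrosinating enzyme Vash1 stood at 3.87 FPKM (bounds 2.53 to 5.20) and 4.46 FPKM (bounds 2.95 to 5.97), and its partner Svbp at 12.4 and 15.01 FPKM. At least 2-fold lower were 4 of the 15 modifying genes compared, beside 10% of all genes compared. Besides Ttll1 and Agtpbp1 they were the acetyltransferase Atat1 and the polyglutamylase Ttll5, both with overlapping bounds. Atat1 stood at 5.71 FPKM (bounds 0 to 11.9) and 2.08 FPKM (bounds 0 to 5.49). Ttll5 stood at 5.92 FPKM (bounds 3.23 to 8.61) and 1.66 FPKM (bounds 0 to 3.35), so both levels are poorly fixed.

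Of 27 microtubule-associated proteins compared out of 36 listed, 5 were lower with separate bounds, beside 9.33% of all genes compared, and 0 were higher (1 after the rescaling, Camsap2), beside 6.67%. The median log2 ratio was -0.39, and 0 with no minimum level. Clasp1, which stabilises growing ends, stood at 137 FPKM (bounds 83.5 to 191) and 46.2 FPKM (bounds 30.6 to 61.8). The end-binding protein gene Mapre2 stood at 41.3 FPKM (bounds 27.2 to 55.3) and 14.5 FPKM (bounds 9.42 to 19.5), and Map7d1, a lattice-binding partner of kinesin, at 190 FPKM (bounds 136 to 245) and 80.1 FPKM (bounds 56.6 to 104). The remaining ones were Map7 and Clasp2, with log2 ratios of -1.20 and -1.22. Mapre1 had a log2 ratio of 1.06 with overlapping bounds.

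Among 34 motor genes compared out of 39 listed, 6 were lower with separate bounds (3 after the rescaling, a share near the background), beside 9.33% of all genes compared, and 0 were higher, beside 6.67%. The median log2 ratio was -0.36. The kinesin gene Kif1c stood at 177 FPKM (bounds 128 to 226) and 68.2 FPKM (bounds 48.5 to 88.0). Kif16b, an endosomal kinesin, had a log2 ratio of -1.09. The dynein light chain gene Dynlt3 had one of -1.53, with overlapping bounds after the rescaling. In the gamma tubulin ring complex and its anchors, 3 of 11 were lower with separate bounds, beside 9.33% of all genes compared, and 0 were higher, beside 6.67%. The 3 were Mzt1 (log2 ratio -1.34), Pcnt (-1.09) and Tubgcp2 (-1.06, with overlapping bounds after the rescaling). The 5 severing genes compared, out of 7 listed, had overlapping bounds.

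**Figure D4:**
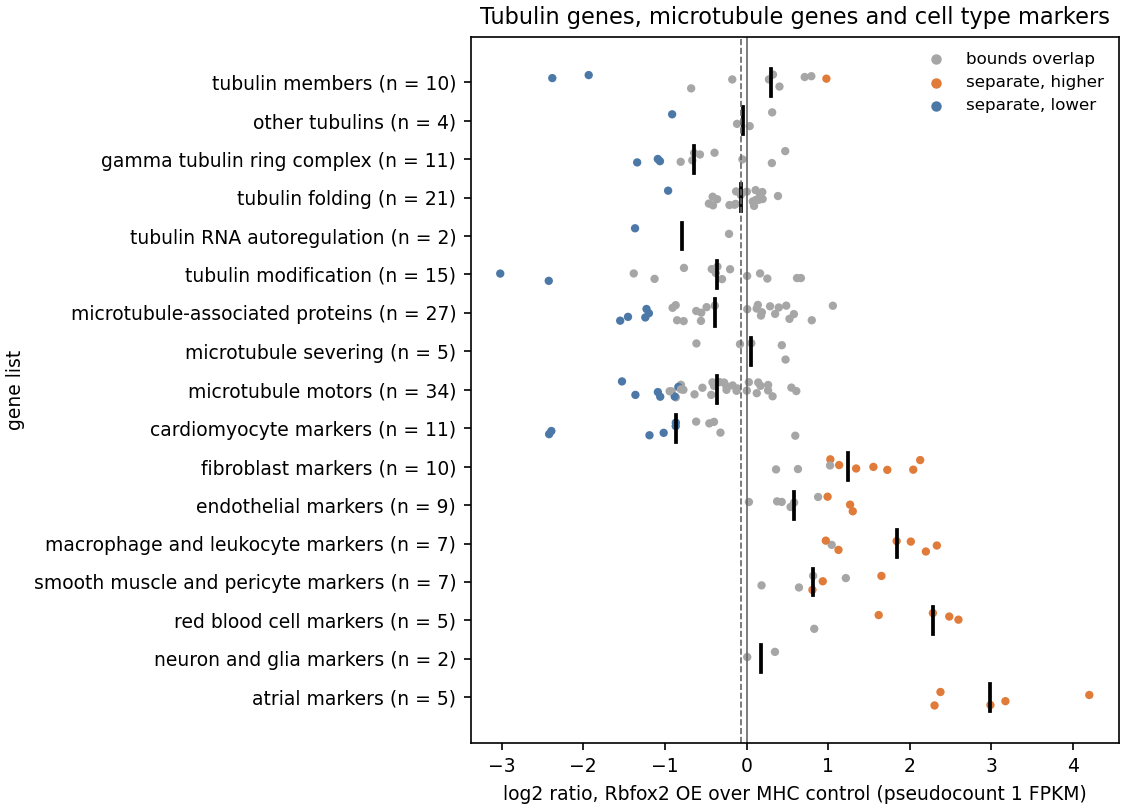
Log2 ratio (OE against control, pseudocount 1 FPKM) for each gene compared, by list; points are genes, coloured where the authors' bounds are separate, black bars are list medians, and the dashed line is the median of all genes. The tubulin genes span -2.38 to 0.98. The microtubule lists hold separate bounds on the lower side only in the values as deposited (1 gene joined on the higher side after the rescaling). The atrial markers and the markers of cell types other than cardiomyocytes lie above 0.

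Markers of cell types differed in level between the groups. Of 12 cardiomyocyte markers, Myh6 was listed at 0 in both groups with a status of too many fragments to estimate. Of the other 11, 6 were lower with separate bounds, beside 9.33% of all genes compared, and 0 were higher, beside 6.67%. Among the 6, Tnnc1 (control lower bound 2728 FPKM, OE upper bound 2721 FPKM) and Actn2 (608 and 579 FPKM) were separate by narrow margins. The bounds of both overlap after the rescaling. The median log2 ratio of the 11 markers was -0.87, in a range from -2.42 for Pln to 0.60 for Ttn, the 1 marker above 0. The most abundant, Myl2, at 24688 and 18007 FPKM, and Tnnt2, at 10609 and 6917 FPKM, had overlapping bounds. The log2 ratios of Tuba4a and Tuba8 lay 1.07 and 1.51 below that median, and 2 of the 11 markers, Ryr2 and Pln, had lower ratios than either. In RNA of mixed cells, fewer cardiomyocytes and less of a transcript per cardiomyocyte cannot be told apart.

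Markers of other cell types were higher in OE cells, and so were atrial markers, named for cardiomyocytes of the atria. Which cells the atrial markers came from was not tested. Summed levels were 246 FPKM in control cells and 585 FPKM in OE cells for 10 fibroblast markers, 242 and 421 FPKM for 9 endothelial markers, and 59.9 and 245 FPKM for 9 macrophage and leukocyte markers. They were 142 and 321 FPKM for 7 smooth muscle and pericyte markers, 56.6 and 295 FPKM for 6 red blood cell markers, and 240 and 3156 FPKM for 5 atrial markers. Separate bounds on the higher side were found for 7 of 10 fibroblast and 3 of 9 endothelial markers compared. The same held for 6 of 7 macrophage and leukocyte and 3 of 7 smooth muscle and pericyte markers compared. It held for 4 of 5 red blood cell and 5 of 5 atrial markers compared. On the lower side, 0 markers of these lists had separate bounds. Over all genes compared, the shares were 6.67% on the higher side and 9.33% on the lower side. The most abundant pair of each list was Dcn and Col3a1 (log2 ratios 1.03 and 2.13), Cdh5 and Pecam1 (0.88 and 0.99), Lyz2 and Cd14 (2.01 and 1.84), Acta2 and Rgs5 (1.65 and 0.82), Hbb-bs and Hba-a1 (2.28 and 2.48), and Nppa and Myl4 (4.20 and 3.17). Within these lists Slc4a1 was listed at 0 in control cells, and no other marker was at 0 in either group. Tubb6, Tubb2a and Tuba1a, the tubulin genes with the highest ratios, moved in the direction of these markers, and the part of other cells in their values was not tested. Neuron and glia markers summed to 12.8 and 16.03 FPKM, led by Uchl1 and Stmn2 at log2 ratios of 0.35 and 0.01, with Snap25 listed at 0 in OE cells, and of 15 cell cycle genes 1 reached a mean of 1 FPKM.

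As a check of the labels, Rbfox2 stood at 14.7 FPKM in control cells and at 293 FPKM in OE cells.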

How the data were processed

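Polyadenylated RNA of 4 libraries was measured, 2 in each group, grouped from their titles. Per the submitters' processing notes, the authors used GRCm38 (mm10) and tools that include STAR 2.4.2a and Cuffdiff 2.2.1. The deposited FPKM values and their bounds pool the libraries of a group, so the limma fit planned for values per library could not be run. The depth is unknown. The normalization mode, annotation and use of strand in counting are not given in the sources used here.

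Rows sharing a name (110 names) were summed. Log2 ratios used a pseudocount of 1 FPKM, which understates changes of low genes. The 11697 genes whose average over both groups reached 1 FPKM were compared, at a 2-fold threshold and by separate bounds. The rule was to name all tubulin genes and up to 3 genes per microtubule list with the largest log2 ratio and separate bounds. For markers it took the 2 most abundant genes and those listed at 0. Further genes were named outside this rule, among them Ttc5, Ttl, Vash1, Svbp, Atat1, Ttll5, Map7, Clasp2, Mapre1, Camsap2, Ryr2, Pln and Ttn. The members and lists were chosen with earlier results of these data known. Coding ends (for 3 alpha genes not reported here), coding identity (global alignment, Biopython 1.88), overlaps and shared 50-base stretches came from GENCODE M21 on GRCm38. Alternatives covered pseudocount, filters, scaling, thresholds, status and repeated names. The calculations were tested on simulated data.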

Additional observations from a re-analysis of the deposited data

How the results depend on the processing

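No paired analysis was possible because the deposited FPKM combine both libraries of a group, and leaving out each library could not be run for the same reason. How far the libraries of a group differ is unknown, which limits each value here, and the unknown depth limits the low genes most. Over the alternatives, the log2 ratio of Tuba4a lay between -1.94 and -1.78, that of Tuba8 between -2.42 and -2.21, and that of Tubb6 between 0.81 and 1.13. Of 458 recomputed values, 429 kept their direction and stayed within the bounds' range or within 1.5 times of a count. Part of these could not differ, because each tubulin gene has 1 row and status OK. The settings on status, repeated names and filters therefore returned the same log2 ratio for each tubulin gene they kept. The count is thus no measure of robustness. The number of tubulin genes at least 2-fold higher, 0, became 1 with a pseudocount of 0.1, with centring on the median gene and with the rescaling, and 3 at a 1.5-fold threshold. The number at least 2-fold lower became 1 at 4-fold. Higher genes with separate bounds became 2 on rescaling and 0 where a 2-fold difference was also required. The median of the other tubulins turned to 0.0035 without a filter, 0.020 on centring and 0.085 on rescaling, and that of tubulin folding to 0.0034 and 0.084 under the same scalings, because the scalings raise each Rbfox2 OE value. On both scalings the lower folding gene was lost (0) and 1 microtubule-associated protein gained separate bounds on the higher side. Other tubulins that were lower with separate bounds became 0 with a minimum of 5 FPKM, which leaves Tubd1 out, and 0 on rescaling, where Tubd1 kept a log2 ratio of -0.82. Motor genes that were lower with separate bounds became 3 on rescaling, with a list median of -0.21. With no filter the medians became 0 for microtubule-associated proteins and -0.047 for tubulin modification, because genes near 0 FPKM enter. A pseudocount of 5 moved Scaper from -1.37 to -0.64, since it weighs most on low genes. Genes at least 2-fold apart over the whole table were 304 higher and 559 lower with a pseudocount of 5, 492 higher with a minimum of 5 FPKM, 1938 and 2582 at 1.5-fold, and 136 and 154 at 4-fold.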
